A study of Oncorhynchus tshawytscha with 17 samples.

Results

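The gene described is wee2 (LOC112218768), a kinase that holds back entry into cell division, in the hindgut of 17 Chinook salmon (Oncorhynchus tshawytscha). It is 1 of 42554 named genes in the count table and 1 of 30221 genes with enough reads to be tested. It was chosen by its identifier after its measured levels in these fish were known to differ between the groups. Its levels by group are therefore given as a description, with no test.

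The study measured RNA from the hindgut, the last stretch of the intestine, to find host genes that respond to a changed gut microbiota. The 6 control fish were healthy fish labelled only as control, the 5 antibiotic fish were given antibiotics for 10 days and the 6 probiotic fish were given probiotics for 10 days. All fish were diploid, and the labels give the cell type as epithelia. Treated fish were killed with clove oil at the end of treatment, and the labels of controls say nothing of this step. The sources used here do not give the agents, strains or doses, nor the age or tank of the fish. Each fish carries the number and letter of its title: controls are ctl12A to ctl35C, antibiotic fish abx67A to abx91B and probiotic fish pro115A to pro139C. Each of the 6 title numbers belongs to a single treatment. If they stand for tanks, which the labels do not say, tank and treatment cannot be told apart.

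A cell enters division when the kinase CDK1, bound to a B-type cyclin, becomes active. Kinases of the WEE family keep CDK1 inactive by placing phosphate on it, and phosphatases of the CDC25 family remove that phosphate. Most vertebrate body cells use WEE1 and the membrane-bound PKMYT1 for this. WEE2 is known in mouse as a form of the oocyte, where it keeps the egg from resuming meiosis too soon, and in frog as the form of the early embryo. In the fish intestine, dividing cells sit mainly at the base of the mucosal folds and cells mature as they move up.

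The depth of the libraries, over named genes, lay between 28.6 M counts in pro115B and 61.1 M in pro139A (M, 1e+06). The group means were 46.2 M in controls, 50.9 M in antibiotic fish and 45.9 M in probiotic fish, closer to each other than the libraries within a group. No library stood far apart, since the median correlation of a library with the others lay between 0.939 and 0.963. For the labelled tissue, 15 entries for enterocyte and epithelial genes were summed. The sum lay between 15490 and 23753 CPM in every fish, where CPM are counts per M counts of a library. The most abundant of them was hexb (LOC112230905), a lysosomal sugar-cleaving enzyme, with a mean of 5588 CPM. Other entries varied widely, with cubn at 4845 CPM, ctsh at 3730 CPM, cdh17 at 926 CPM and lct at 3.75 CPM. The sum does not by itself establish the tissue. Across all genes, edgeR's quasi-likelihood test with Benjamini-Hochberg adjustment called 0 of 30221 genes (0%) in antibiotic versus control, 0 (0%) in probiotic versus control and 0 (0%) in antibiotic versus probiotic fish. At an unadjusted p under 0.05, the shares were 6.21%, 9.71% and 6.05%. DESeq2 called 26 of 30013 genes (0.0866%), 34 of 30013 (0.113%) and 23 of 28841 (0.0797%).

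wee2 lies on the plus strand of chromosome sequence NC_037115.1, from position 41456655 to 41461942 as the deposited table gives it, in a build that is not stated there. Its exons form 13 blocks with 2344 bases in all. It was a scarce transcript, with between 77 and 678 reads in a library. Sampling of reads alone gives an error of 3.84 to 11.40% of each value, and this range covers counting error only.

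Among controls, wee2 was at 5.88 CPM in ctl12A, 8.52 in ctl12B, 8.66 in ctl12C, 9.97 in ctl35A, 10.15 in ctl35B and 13.2 in ctl35C. In antibiotic fish it was at 9.89 CPM in abx67A, 7.95 in abx67B, 8.81 in abx67C, 10.9 in abx91A and 11.34 in abx91B. In probiotic fish it was at 4.76 CPM in pro115A, 5.43 in pro115B, 1.70 in pro115C, 4.42 in pro139A, 4.20 in pro139B and 4.84 in pro139C. The 6 probiotic fish were the 6 lowest of the 17, and all 5 antibiotic values lay within the range of the controls.

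The group means were 9.40 ± 2.42 CPM over the 6 controls, 9.77 ± 1.41 CPM over the 5 antibiotic fish and 4.23 ± 1.31 CPM over the 6 probiotic fish, each with its SD. The fitted log2 fold change was -1.15 ± 0.23 (SE) for probiotic against control fish, a level 2.22-fold lower. It was 1.21 ± 0.24 (SE) for antibiotic against probiotic fish, a level 2.31-fold higher in antibiotic fish. Between antibiotic and control fish it was 0.06 ± 0.24 (SE), smaller than its own error. In the order of levels, the neighbours on each side of the boundary were pro115B at 5.43 CPM and ctl12A at 5.88 CPM. Their counting errors were 7.88% and 5.56%, so this pair did not differ beyond reading error. The lowest fish, pro115C, stood well below the next one, pro139B, at 4.20 CPM.

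**Figure D1:**
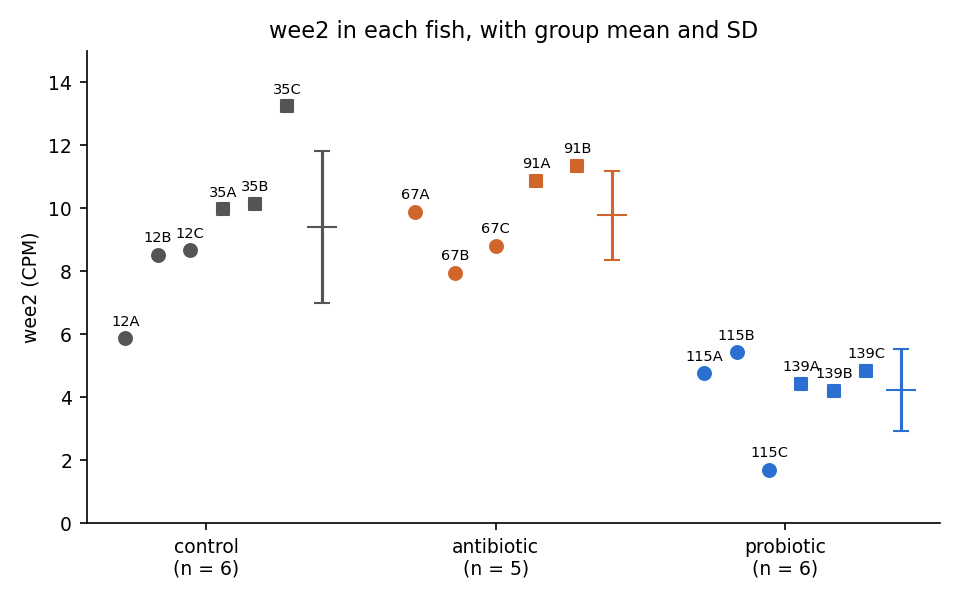
Level of wee2 in each fish in CPM on a linear axis, by group, with the group mean and SD as a bar at the right of each group. Circles and squares mark the lower and the higher title number of a group. All 6 probiotic fish lie at or below 5.43 CPM and all other fish at or above 5.88 CPM.

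Full separations of this kind were counted over all tested genes, without working out how many a chance order of the fish would give. The small shares below therefore do not show that such a separation is rarer or more frequent than chance. In 50 of 30221 genes (0.165%) all probiotic fish lay below all controls. In 2 genes (0.00662%) they also lay below all antibiotic fish, and wee2 was chosen for this contrast, so its place among them is no added evidence. The other was LOC112249934, which has no symbol in the names used here. It lay between 19.1 and 24.4 CPM in probiotic fish, between 25.5 and 46.5 CPM in controls and between 27.0 and 39.9 CPM in antibiotic fish.

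The values by position on the index plate, read from the index names in the titles, are given as a description. The probiotic fish were the 6 lowest of all, so they are the lowest in any column, and this cannot separate plate position from treatment. In plate column 9 wee2 was at 5.88 CPM in the control, 8.81 and 9.89 CPM in the antibiotic fish and 4.42 CPM in the probiotic fish. In column 10, which held no antibiotic fish, the control was at 13.2 CPM and the probiotic fish were at 5.43 and 1.70 CPM. In column 11, also without antibiotic fish, controls were at 8.52 and 10.15 CPM and probiotic fish at 4.76 and 4.20 CPM. In column 12 controls were at 8.66 and 9.97 CPM, antibiotic fish between 7.95 and 11.34 CPM and the probiotic fish at 4.84 CPM.

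The levels by title number within each group are given as a description. Fish numbered 12 averaged 7.68 ± 1.57 CPM (SD, n = 3) and those numbered 35 averaged 11.119 ± 1.84 CPM (SD, n = 3), with no overlap. The exact two-sided permutation p was 0.1, the smallest that 3 against 3 fish allow. Antibiotic fish numbered 67 averaged 8.88 ± 0.969 CPM (SD, n = 3) and those numbered 91 averaged 11.103 ± 0.337 CPM (SD, n = 2), with an exact permutation p of 0.2. The antibiotic numbers did not overlap either. Probiotic fish of the lower number averaged 3.96 ± 1.99 CPM (SD, n = 3) and those of the higher averaged 4.49 ± 0.324 CPM (SD, n = 3), with an exact permutation p of 0.9. The control numbers differed by 0.54 on the log2 scale.

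The nearest genes gave a view of the stretch of chromosome around wee2. On one side is dennd11 (LOC112218766), which carries a DENN domain and runs on the opposite strand. Its start and the start of wee2 face away from each other across 317 bases. Controls held dennd11 at 87.2 to 119.9 CPM, antibiotic fish at 73.2 to 108.1 CPM and probiotic fish at 42.3 to 103.9 CPM, so all groups overlapped. The log2 fold change in probiotic fish was -0.55 ± 0.17 (SE) with an adjusted p of 0.446 by edgeR, which does not pass. The level of dennd11 nevertheless followed that of wee2 over the 17 fish, with r = 0.80, and r = 0.61 without pro115C. That fish held the lowest level of both genes.

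On the other side, 1435 bases past the end of wee2 and on the same strand, is bida (LOC112218769), a BH3-domain gene of the BID family that acts in cell death. It averaged 28.5 ± 3.53 CPM in controls, 18.8 ± 2.01 in antibiotic fish and 19.0 ± 6.92 in probiotic fish (SD, with 6, 5 and 6 fish). Its mean was lower in both treatments, while that of wee2 was lower in probiotic fish and not in antibiotic fish. The log2 fold change of bida was -0.59 ± 0.19 (SE) in probiotic fish, with an adjusted p of 0.446 by edgeR, and its r with wee2 was 0.59, or 0.28 without pro115C. The next genes out were agk (LOC112218767), an acylglycerol kinase of mitochondria, with r = 0.04, and bcl2l13, a BCL2-like gene, with r = -0.23. Without pro115C these were -0.05 and 0.26, so both signs rested on that fish. No exon of a neighbour overlapped an exon of wee2. The ranges of agk and dennd11 do overlap, and no source used here says whether reads were counted by strand.

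The other kinases that act on CDK1 were compared per kilobase of exon, so that their levels can be set beside each other. In controls wee2 stood at 4.01 ± 1.03 CPM per kb (SD, n = 6), the highest mean of the 4 kinases found by name. The wee1 entry named by symbol stood at 1.87 ± 0.746, a further wee1 entry (LOC112218334) at 2.34 ± 0.425 and pkmyt1 at 2.996 ± 0.189 CPM per kb. In antibiotic fish (n = 5) the levels were 4.17 ± 0.600 for wee2, 2.73 ± 1.03 and 2.99 ± 0.581 for the wee1 entries and 2.81 ± 0.484 CPM per kb for pkmyt1.

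In probiotic fish (n = 6) wee2 had the lowest mean of the 4, at 1.80 ± 0.558 CPM per kb. The wee1 entries were at 2.14 ± 0.660 and 2.99 ± 0.888 CPM per kb there, and pkmyt1 at 3.20 ± 0.649. The log2 fold changes of these 3 kinases in probiotic against control fish were 0.20 ± 0.29, 0.35 ± 0.19 and 0.09 ± 0.14 (SE), and none passed the test. As a share of the summed level of the 4 kinases, wee2 made up 35.6 ± 7.96% in controls (SD, n = 6), 32.9 ± 4.90% in antibiotic fish (SD, n = 5) and 18.2 ± 6.15% in probiotic fish (SD, n = 6). The highest probiotic share was 24.3%, in pro115B, and the lowest control share was 24.9%, in ctl12A, so the groups met without overlapping. This share contains wee2 itself and is no independent measure. Salmonids hold many recent gene copies, and reads of near-identical copies could be split between entries.

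**Figure D2:**
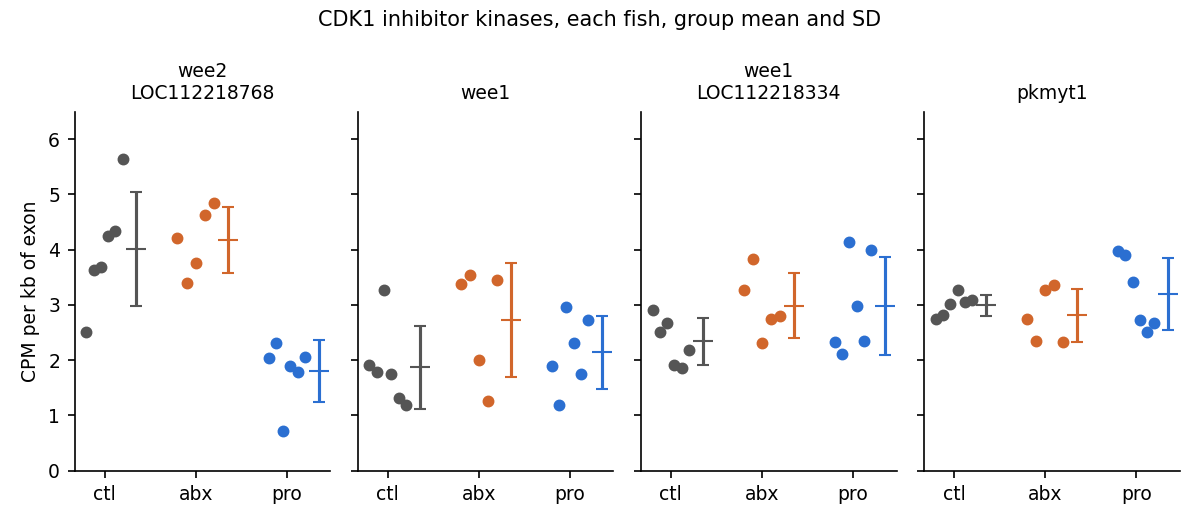
CPM per kb of exon of the 4 CDK1 inhibitor kinases in each fish (ctl, control; abx, antibiotic; pro, probiotic), with the group mean and SD. wee2 averages 4.01 in controls and 1.80 in probiotic fish, while wee1 (both entries) and pkmyt1 overlap between all groups.

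The next genes examined set the CDK1 switch as a whole, on a list of 39 symbols of which 28 entries were tested. No entry was matched to cdk1 itself by symbol, so it was not analysed here. None of the 28 passed the adjusted threshold in any comparison. In probiotic against control fish 26 were higher and 2 lower, where 50.7% of all tested genes were higher. The list median was 0.28 on the log2 scale, against 0.005 over all tested genes. At an unadjusted p under 0.05, 3 of the 28 were higher and 0 lower in probiotic fish, where 5.29% of all tested genes were higher and 4.42% lower. In antibiotic against control fish 22 were higher and 6 lower, with a median of 0.39, where 53.0% of all tested genes were higher. There, 3 were higher and 1 lower at an unadjusted p under 0.05, against 3.68% and 2.53% of all tested genes. Both comparisons use the same controls. Several of the 28 entries also moved together across fish. Among controls, plk1, aurka, ccnb1 and mastl were all highest in ctl12C and lowest in ctl35B. Counts of entries are therefore not counts of separate measures.

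The checkpoint kinase chek2, which keeps CDC25 in check after DNA damage, was at 4.30 ± 0.948 CPM in controls (SD, n = 6), 4.75 ± 1.56 in antibiotic fish (SD, n = 5) and 6.37 ± 1.26 in probiotic fish (SD, n = 6). It had the most negative correlation with wee2 on the list, r = -0.63 over 17 fish, or -0.49 without pro115C. Its highest value was 8.39 CPM in pro115C, the fish with the least wee2. The other checkpoint genes were chek1, with r = -0.51, atrip with -0.35 and atr with -0.15.

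The phosphatase cdc25c, which reverses the action of WEE kinases, was at 5.92 ± 4.28 CPM in controls (SD, n = 6), 10.2 ± 5.41 in antibiotic fish (SD, n = 5) and 9.30 ± 4.77 in probiotic fish (SD, n = 6). Its r with wee2 was -0.36. Values within each group ran from low to high, from 1.63 to 13.7 CPM among controls and from 2.40 to 14.4 CPM among probiotic fish. A further phosphatase entry, cdc25d, was close to the floor at 0.221 ± 0.106 CPM in controls and had r = -0.29.

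Among the cyclins, ccnb1 (LOC112230962) was at 9.83 ± 7.01 CPM in controls (SD, n = 6), 17.5 ± 8.996 in antibiotic fish (SD, n = 5) and 12.345 ± 7.05 in probiotic fish (SD, n = 6). Its r with wee2 was -0.18, beside -0.16 for ccnb2, -0.20 for ccnb3 and 0.21 for the scarce ccna1. The interphase kinase cdk2 had r = -0.55 and stood at 9.87 ± 4.31 CPM in controls, 13.0 ± 6.12 in antibiotic fish and 16.8 ± 8.02 in probiotic fish. The small CDK-binding proteins gave -0.44 for cks1b and -0.41 and -0.23 for the cks2 entries.

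Among the kinases that switch CDK1 on, polo-like kinase plk1 had r = -0.15, aurka -0.20 and their partner bora -0.32. The CDK-activating complex gave -0.27 for cdk7, 0.01 for ccnh and -0.21 for mnat1. In the branch that restrains the opposing phosphatase PP2A, mastl had r = -0.17, ensab -0.48 and arpp19 -0.23, and the PP2A subunit ppp2r2d had -0.02. The wee1 entries had r = -0.47 (LOC112218334) and -0.20, which without pro115C came to -0.23 and -0.05. In all, 26 of the 28 correlations were negative, with a median of -0.22, where 47.2% of all tested genes were negative. As several entries moved together, these are not 28 separate measures, and some of the signs rested on pro115C. Without it r was 0.002 for plk1 and 0.01 for mastl, while it was -0.37 for cdk2 and -0.52 for ensab. The list is not separate from the mitosis genes that follow, as plk1, ccnb1, ccnb2 and aurka belong to both.

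The relation of wee2 to cell division was followed on genes of mitosis and of DNA replication, 132 symbols with 83 tested entries. The 83 entries rose and fell nearly together across fish, as given below, so counts of them are not counts of separate measures. In probiotic against control fish 80 of the 83 were higher, beside 50.7% of all tested genes. The middle entry differed by 0.56 on the log2 scale, against 0.005 over all tested genes. None passed the adjusted threshold, and at an unadjusted p under 0.05, 24 were higher and 1 was lower, beside 5.29% higher and 4.42% lower over all tested genes. In antibiotic against control fish 78 were higher, beside 53.0% of all tested genes, also with a median of 0.56. At an unadjusted p under 0.05, 2 were higher and 1 lower there, beside 3.68% and 2.53% over all tested genes. Between antibiotic and probiotic fish 41 entries were higher in antibiotic fish and 42 lower, but the lists that make up this count leaned opposite ways. DNA replication had 5 entries higher and 34 lower, with a median of -0.28, and mitosis had 36 higher and 8 lower, with a median of 0.19. Over all tested genes 51.5% were higher in antibiotic fish.

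The DNA replication entries carried most of the unadjusted calls. Of 39 tested, 23 were higher in probiotic fish at an unadjusted p under 0.05, with a list median of 0.79, beside 5.29% and a median of 0.005 over all tested genes. wee2 was chosen on this same contrast, so nothing is read from these counts about wee2. Among them was orc1 (LOC112251632), a subunit of the complex that marks replication origins, at 3.40 ± 1.36 CPM in controls (SD, n = 6), 4.23 ± 1.02 in antibiotic fish (SD, n = 5) and 6.16 ± 2.30 in probiotic fish (SD, n = 6). Its log2 fold change was 0.86 ± 0.28 (SE), with an adjusted p of 0.446 by edgeR. The 1 entry that was lower was dhfr (LOC112247448), a folate enzyme, and its control mean of 6.01 ± 14.2 CPM rests on a single fish. Among the higher entries, mcm7 (LOC112221123) likewise had a probiotic mean of 0.834 ± 1.41 CPM that rests mostly on a single fish. That fish was at 3.70 CPM, against a probiotic median of 0.321 CPM. Of 44 mitosis entries 42 were higher in probiotic fish, with a median of 0.44, where 50.7% of all tested genes were higher. At an unadjusted p under 0.05, 1 of the 44 was higher, against the same 5.29%. The most abundant of them, top2a, a DNA topoisomerase, was at 75.1 ± 41.0 CPM in controls, 127 ± 63.4 in antibiotic fish and 105 ± 49.2 in probiotic fish.

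The sign of the correlation with wee2 was alike for nearly all of these entries. Over 17 fish 81 of the 83 division entries had a negative r with wee2, with a median of -0.38, where 47.2% of all tested genes were negative. These entries are close to a single measure and not 83 separate ones, as the median correlation of a member with the score of the whole list was 0.951. The lowest values were -0.71 for orc1 and, among mitosis genes, -0.56 for mybl2b (LOC112220543), a transcription factor of the cell cycle. The exceptions were dhfr at 0.29 and the centromere protein gene cenpi (LOC112224214) at 0.20. Relative to each group's own mean, 81 of 83 were again negative, with a median of -0.45.

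A score for each list, the mean over members of log2 CPM centred on the gene's mean, was then set against wee2. As wee2 was chosen for its difference between groups, its relations over all 17 fish carry that difference in part. The cell division score gave Pearson r = -0.41 with a permutation p of 0.104 and Spearman rho = -0.43 with a permutation p of 0.0896 over 17 fish. Adjusted over 15 relations the p for r was 0.351, which does not pass. Centred on the group means, r was -0.47 with a permutation p of 0.0801. Within the 6 controls r was -0.36 with an exact permutation p of 0.485, and within the 6 probiotic fish it was -0.60 with an exact permutation p of 0.208. Without the 2 fish whose score was farthest from the median, ctl35B and abx91A, r was -0.29. Without pro115C, a choice made after the data were seen, it was -0.24 with a permutation p of 0.369.

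Over all 17 fish DNA replication gave r = -0.55 (permutation p of 0.0233, adjusted 0.350) and rho = -0.54 (permutation p of 0.0287, adjusted 0.108). This r was -0.50 without the 2 fish farthest from the median, -0.49 centred on group means (permutation p of 0.0703) and -0.38 without pro115C. Centred on group means rho was -0.40 (permutation p of 0.124). Within controls r was -0.29 for DNA replication and -0.39 for mitosis (exact permutation p of 0.556 and 0.436). Over all fish mitosis alone gave r = -0.30 (permutation p of 0.242) and the CDK1 switch list r = -0.33 (permutation p of 0.191). Without pro115C these were -0.15 and -0.18. No relation over 17 fish passed after adjustment. The fish pro115C held the least wee2, 1.70 CPM, and the highest DNA replication score, 1.11. At the other end ctl35B had the lowest score, -1.46, with wee2 at 10.15 CPM. pro115B had both a low score, -0.75, and low wee2, 5.43 CPM.

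**Figure D3:**
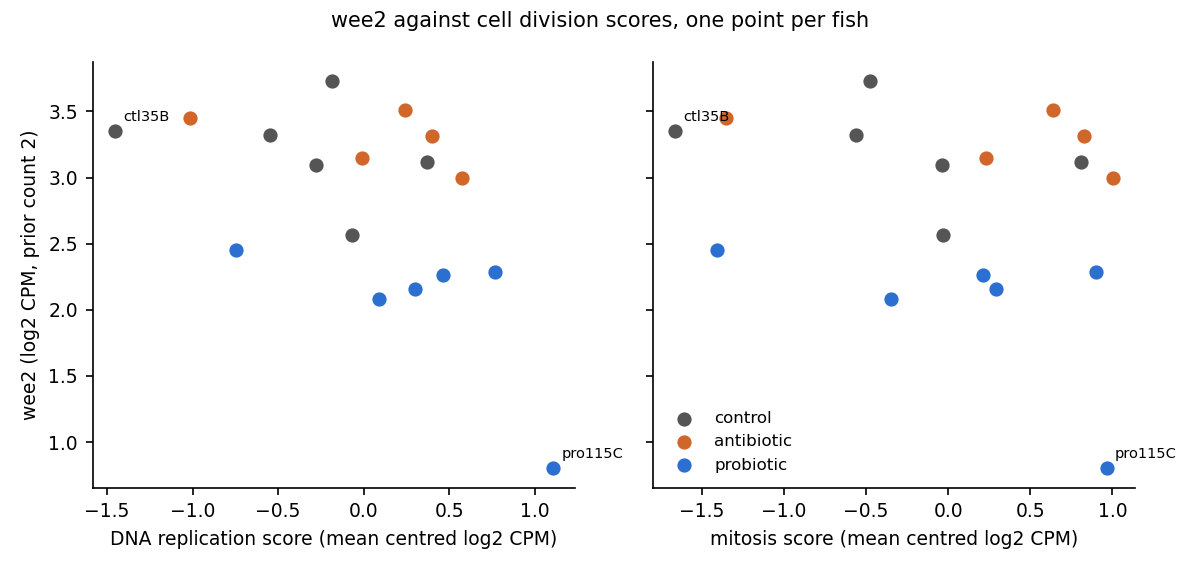
wee2 in log2 CPM (prior count 2) against the score of DNA replication genes (left) and of mitosis genes (right), in mean centred log2 CPM, with a point for each of 17 fish coloured by group. Pooled r is -0.55 for replication and -0.30 for mitosis, or -0.38 and -0.15 without pro115C, and pro115C is the lowest point of both panels.

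RNA of other cell types was looked at because wee2 is known from oocytes. In bulk tissue, fewer cells of a type and less RNA per cell cannot be told apart. Besides ccnb3, which also belongs to the division switch, 15 oocyte entries were found, and all 15 had a mean below 1 CPM. Their summed level was 1.33 to 3.53 CPM in controls, 1.63 to 17.7 CPM in antibiotic fish and 1.02 to 2.27 CPM in probiotic fish. The egg growth factor bmp15 (LOC112235094) was at 0.215 ± 0.233 CPM in controls (SD, n = 6) and 0.0730 ± 0.0601 CPM in probiotic fish (SD, n = 6). The egg nucleoplasmin npm2b (LOC112219804) was at 0 in 16 of 17 fish. In controls the lowest wee2 level, 5.88 CPM, was above the highest sum of the 15 entries. In antibiotic fish the highest sum, 17.7 CPM in a single fish, was above the highest wee2 level, 11.34 CPM. The median sum of the antibiotic fish was 2.65 CPM. In probiotic fish the highest sum, 2.27 CPM, was above the lowest wee2 level, 1.70 CPM. The part of oocyte RNA in the wee2 level was not tested. The oocyte score is over the 6 tested oocyte entries, and ccnb3 is among them. The fish abx91B had the highest oocyte score of the 17, 1.41, and wee2 at 11.34 CPM, the most among antibiotic fish. The oocyte score gave r = 0.41 with wee2 (permutation p of 0.104, adjusted 0.351), 0.63 without pro115C and -0.01 centred on group means. Its rho was 0.54 (permutation p of 0.028, adjusted 0.108), and 0.15 centred on group means (permutation p of 0.589). Germ line and meiosis entries summed to 14.3 to 23.1 CPM, and their score gave r = -0.20.

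Of the epithelial genes, ctsh (LOC112218593), a lysosomal protease, followed wee2 with r = 0.74, and 0.60 without pro115C. It was at 4394 ± 1062 CPM in controls (SD, n = 6), 3773 ± 850 in antibiotic fish (SD, n = 5) and 3029 ± 745 in probiotic fish (SD, n = 6). Its log2 fold change in probiotic fish, -0.54 ± 0.19 (SE), did not pass, with an adjusted p of 0.454 by edgeR. The intestinal cadherin cdh17 went the other way, with r = -0.47. The epithelial score as a whole gave r = 0.27 (permutation p of 0.305). Its sign rested on pro115C, as r was -0.13 without that fish.

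Smooth muscle entries, which mark the gut wall beneath the epithelium, summed to 1374 to 3771 CPM in controls, 1138 to 2280 in antibiotic fish and 979 to 2230 in probiotic fish. All 4 were present in every fish, and their score gave r = 0.40 and rho = 0.57 with wee2 (permutation p of 0.117 and 0.0177, adjusted 0.351 and 0.108). Centred on group means this r was 0.26 and rho 0.29 (permutation p of 0.298 and 0.27). Within the 6 probiotic fish r was -0.13. The highest of the 4 by r over all fish was cnn1b (LOC112214438), a calponin, with 0.48. The part of muscle RNA in the wee2 difference was not tested. The epithelial progenitor score, over axin2, myc, smoc2 and lgr5, gave r = 0.43 and rho = 0.66 (permutation p of 0.0876 and 0.0048, adjusted 0.351 and 0.072). Centred on group means this r was 0.21 and rho 0.47 (permutation p of 0.462 and 0.0689). Within the 6 probiotic fish r was -0.12. Over all 17 fish all 4 genes had a positive r, from 0.12 for axin2 to 0.48 for myc. The most abundant of them, axin2 (LOC112239326), was at 18.4 ± 2.94 CPM in controls and 19.0 ± 4.52 CPM in probiotic fish. The scarce lgr5, a stem cell receptor in mouse, was at 0.577 ± 0.405 CPM in controls and 0.415 ± 0.122 CPM in probiotic fish. The highest control for lgr5 was at 1.36 CPM, against a control median of 0.472 CPM.

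For the remaining lists, r over all fish was 0.31 for B cells, 0.13 for T cells, 0.14 for red blood cells, -0.06 for liver and -0.14 for exocrine pancreas. Some of these rested on pro115C. Without it r was -0.09 for B cells, 0.02 for T cells and -0.08 for red blood cells. For liver and exocrine pancreas r was more negative without it, at -0.23 and -0.42. Library size gave r = 0.06, and -0.02 without that fish. Within the 6 probiotic fish the B cell score had r = 0.81 with wee2 (exact permutation p of 0.00139, adjusted 0.0208). Within the 6 controls the same relation had the other sign, r = -0.42 (exact permutation p of 0.417), and the difference between the groups was not tested. The probiotic p is the smallest that 6 fish allow. Its adjustment covered only the 15 relations within probiotic fish, and not those in controls or over all fish. The B cell score is over 6 entries, some of them scarce, such as pou2af1 at 0.520 CPM and cd79a at 0.506 CPM.

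**Figure D4:**
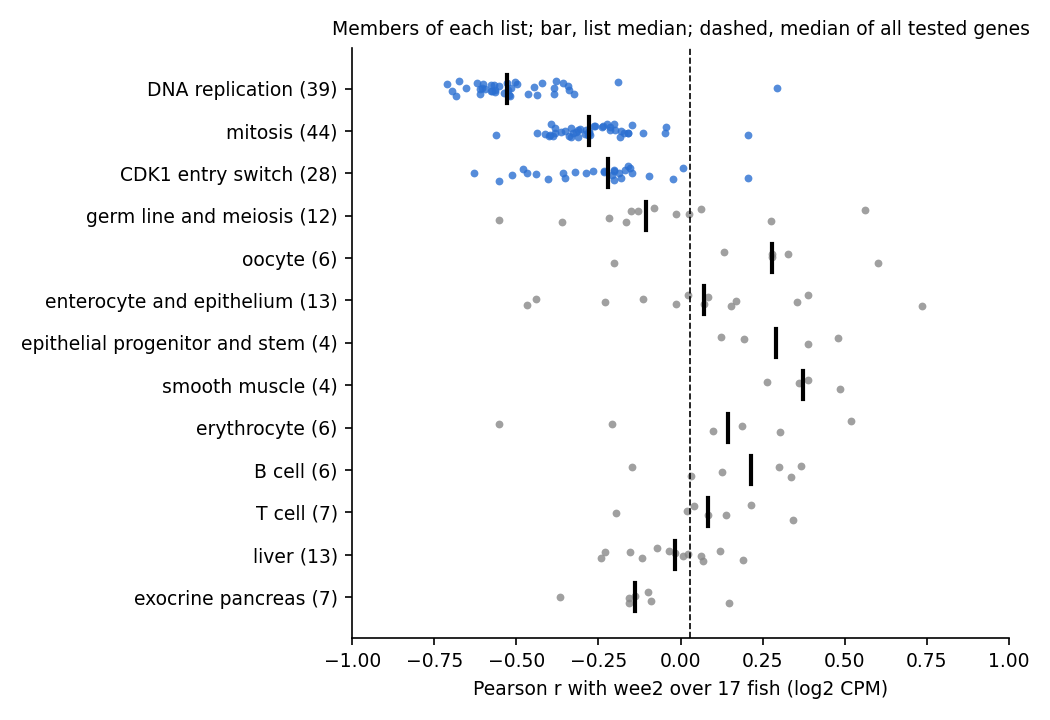
Pearson r with wee2 over 17 fish for every tested member of each gene list, with the number of members in brackets, the list median as a bar and the median of all tested genes as a dashed line. The division lists (blue) lie almost wholly left of 0, with medians of -0.53 for DNA replication and -0.28 for mitosis.

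Lastly, the genes whose levels were most like those of wee2 were ranked by Pearson r on log2 CPM over 17 fish, as a description. As wee2 was chosen for its difference between groups, genes picked for likeness to it tend to share that difference. Their levels by group are therefore no added evidence. Of 30220 other genes, 56 had r above 0.8, 2 had r above 0.9 and 17 had r below -0.8. The pair above 0.9 were LOC112216144, which has no symbol, at 0.94, and frmd4bb (LOC112216146), a FERM-domain gene, also at 0.94. Both lie on the plus strand of NC_037112.1, another chromosome sequence, at 55045747 to 55053706 and 55124792 to 55151192. They kept r of 0.90 and 0.85 after each group was centred on its own mean, and 0.89 and 0.89 without pro115C.

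The level of frmd4bb was 37.7, 45.8, 37.2, 54.3, 40.5 and 54.2 CPM in the controls ctl12A to ctl35C. It was 44.8, 30.0, 46.2, 45.4 and 42.7 CPM in the antibiotic fish abx67A to abx91B, and 26.4, 26.8, 13.5, 23.9, 23.8 and 31.0 CPM in the probiotic fish pro115A to pro139C. As with wee2, pro115C was the lowest fish and ctl35C was among the highest. Probiotic and control fish did not overlap, while pro139C at 31.0 CPM was above abx67B at 30.0 CPM. All probiotic fish lay below all controls in 50 of 30221 genes (0.165%), and frmd4bb was picked for its likeness to wee2.

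The other 8 of the 10 most alike were LOC112255352 at 0.90, the lysosomal membrane gene sidt2 at 0.89, LOC112253764 at 0.88, and LOC112256808, parp4, LOC112215583, the adhesion gene fblim1 and LOC112221638, all at 0.87. sidt2 was at 108 ± 20.1 CPM in controls (SD, n = 6), 95.4 ± 15.3 in antibiotic fish (SD, n = 5) and 64.8 ± 14.1 in probiotic fish (SD, n = 6). parp4, a gene of the vault particle, was at 324 ± 48.6, 314 ± 21.2 and 240 ± 24.6 CPM in the same order. The 3 genes that ran most against wee2 were LOC112264648 at -0.88, LOC112244701 at -0.85 and LOC112238576 at -0.84, none with a symbol. No gene of the division lists was among the 10 or the 3. With 83 division entries among 30220 ranked genes, absence from so short a list says little about their relation to wee2.

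**Figure D5:**
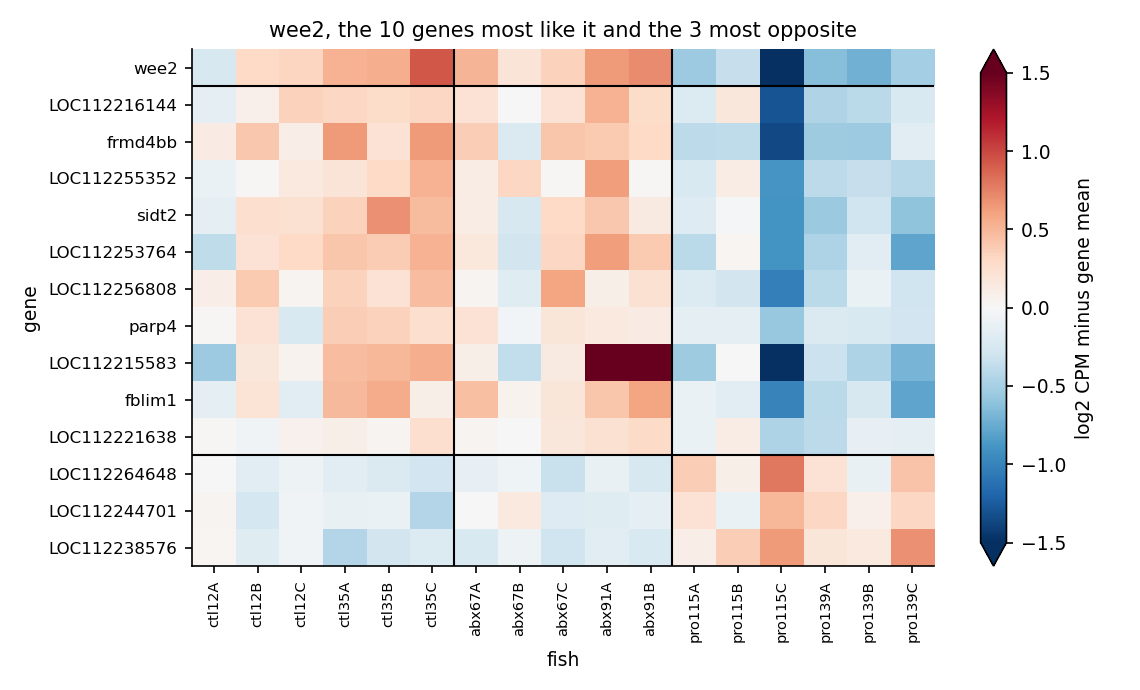
Level of wee2 (top row), of the 10 genes most like it and of the 3 most opposite (bottom rows) in each of 17 fish, as log2 CPM minus the gene's mean, with colours limited at the ends of the scale. The probiotic columns at the right are mostly blue in the upper rows and mostly red in the bottom rows, most deeply in pro115C. The genes were picked by their r with wee2, so this pattern follows from the choice.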

How the data were processed

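The values are gene counts that the authors deposited for 17 hindgut libraries. The tools named in the submitters' processing notes are Trimmomatic 0.38 for trimming, HISAT2 for alignment and featureCounts for counting. Build, strand setting and the treatment of multiply mapped reads are not stated. The table itself gives symbols to 4401 identifiers, and names for assembly Otsh_v2.0 gave symbols to 6084 of 38153 LOC identifiers; no coordinates were taken from that assembly. The 1 unnamed entry, 0.155 to 0.523% of counts, was left out.

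Tests used R 4.3.3 and edgeR 4.0.16 (filterByExpr, TMM, robust quasi-likelihood F-test, 2-sided) on all 17 libraries with group as factor, and Benjamini-Hochberg adjustment over 30221 genes at 0.05. Log2 CPM used a prior count of 2. CPM are TMM-scaled. Permutations numbered 100000, or were exact within groups of 6. DESeq2 1.42.0 was an alternative, and gave an adjusted p to fewer genes. Only edgeR's test of probiotic against control fish was tried on simulated counts, and the scores, correlations and permutations were not. The series text speaks of individuals, so each library was taken as a separate fish, and p-values measure the spread between these libraries.

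wee2 and the 13 gene lists were chosen with earlier results of these data known. Genes named are wee2, the CDK1 switch list, its neighbours, the 10 most alike and 3 most opposite genes, and from each other list the most abundant, the 3 highest and the 1 lowest in r. A member of the CDK1 switch list is counted but not reported here by name. LOC112249934, npm2b and cubn were named after their values were seen. The values without pro115C were also added after the data were seen.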

Additional observations from a re-analysis of the deposited data

Results flagged for a closer look

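A total of 33 groups of fish were examined, for wee2 and some of the other genes named here. In 3 of them a fish lay far from the rest, where chance alone gives about 1 in 20 separate groups. The first was wee2 in probiotic fish, where pro115C at 1.70 CPM lay far below the other 5. The gap to the nearest fish was 0.670 of the range of the group. The others were both in the control ctl12C, the highest control for wee1, at 11.5 CPM, and for ccnb1 (LOC112230962), at 23.1 CPM. Both genes belong to the CDK1 switch list and both flags fall on the same fish, so they are not separate events. wee2 in ctl12C was 8.66 CPM, close to the control median of 9.31 CPM.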

How the results depend on the processing

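The wee2 log2 fold change was computed again in 23 alternatives (other scalings, no filter, DESeq2, only the groups compared, plate column, each fish left out). In all of them it stayed within 0.443 of its main value, the pooled SD of single fish within groups. That bound is wider than the SE of the fold change, so it was easily kept. The fold change ranged from -1.26 to -0.98 in probiotic versus control and from 1.03 to 1.29 in antibiotic versus probiotic fish. In antibiotic versus control fish it ranged from -0.06 to 0.18 and was below 0 in 2 alternatives. The correlation with the cell division score was negative in all 27 alternatives, from -0.60 to -0.24, and from -0.49 to -0.24 with each fish left out, weakest without pro115C. It passed an unadjusted p of 0.05 only with the DNA replication list alone, at -0.55. Counts of called genes moved from 0 to 26, 34 and 23 with DESeq2 for antibiotic versus control, probiotic versus control and antibiotic versus probiotic. Antibiotic versus control gave 1 gene with plate column as a factor. Probiotic versus control gave 1 gene with only the groups compared, and 0 to 1 with each fish left out, 1 without ctl12A and 1 without abx67B. The cause was not tested. No paired analysis was possible because the groups share no replicate numbers. Low counts limit wee2 most in pro115C, with 77 reads.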

Other observations

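Within the 6 controls wee2 had r = -0.85 with library size (exact permutation p of 0.0444, adjusted over 15 relations 0.333), and in the 6 probiotic fish r was -0.03. Exocrine pancreas genes, which include the digestive enzyme cpb1 (LOC112227610), had r = -0.80 with wee2 in controls (exact permutation p of 0.0347, adjusted 0.333) and 0.36 in probiotic fish. The epithelial score had r = 0.80 with wee2 within probiotic fish (exact permutation p of 0.0139, adjusted 0.104) and -0.35 within controls. These differences between groups were not tested.

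A further chromosome neighbour of wee2 followed it across fish. LOC112218764, which ends 45015 bases before wee2 and has no symbol, had r = 0.80 and was at 58.2 ± 6.03 CPM in controls (SD, n = 6), 59.6 ± 3.70 in antibiotic fish (SD, n = 5) and 50.7 ± 4.71 in probiotic fish (SD, n = 6). It was named after its value was seen.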
